A study of Mus musculus with 4 samples.

Results

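The interferon-stimulated genes described here are a list of 29 mouse genes, chosen by name, that are known to be induced by interferons in many cell types. They were chosen with earlier results of these data known. All 29 were found among the 34866 genes of the count table, and 28 of them had enough counts to enter the test of 14067 genes. The exception was Cxcl9. RNA had been sequenced from the gastric corpus mucosa, the acid-secreting part of the stomach lining, of Muc6 +/+ (wild type) and Muc6 -/- (knockout) mice. Muc6 encodes a mucin secreted deep in the stomach glands, and the question was its relation to stomach cancer. Each genotype has 2 libraries, called wild type 1 and 2 and knockout 1 and 2 after the numbers in their titles. The labels give no strain, age, sex or treatment, nor whether each library is a different mouse. The p-values therefore rest on the variation among these 4 libraries alone, and that variation may be technical. The targeted gene Muc6 stood at 345 and 313 CPM (counts scaled by library size) in wild type 1 and 2 but at 0 and 0.413 CPM in knockout 1 and 2, as the labels have it. Total counts were 20327623 to 27946313. Knockout 1 stood apart from the others by low parietal and chief cell genes, by squamous genes and by counts of Gast and Pdx1, whose values are given with the cell type markers, and the genotype comparison is also given without it.

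Interferons are secreted proteins that signal from an infected or stimulated cell to its neighbours. Type I interferons and the type III interferons that act mainly on epithelia bind different receptors but both activate a complex that includes STAT2 and IRF9 and binds the interferon-stimulated response element (ISRE) of target genes. Interferon gamma, a product of T and NK cells, acts through another receptor and favours guanylate-binding proteins, immunity-related GTPases and the chemokines Cxcl9 and Cxcl10. Part of this programme is active without infection in epithelia that face the gut contents.

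For these genes the libraries separated by their number and not by their genotype. The labels do not say what the number marks, and each genotype holds only 1 library of each number. Summed over the 29 members, levels in CPM were 963 in wild type 1 but 225 in wild type 2, and 792 in knockout 1 but 197 in knockout 2. Values below are given for library 1 then library 2 of each genotype, wild type first. Wild type 1 thus held 4.29 times the level of wild type 2 (95% interval 4.15 to 4.43), and knockout 1 held 4.01 times that of knockout 2 (3.89 to 4.15). These exact intervals cover counting error only, and a comparison of 1 library with 1 other has no replicate check. In bulk tissue, fewer responding cells and less RNA per cell cannot be told apart.

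The same split ran through single members. As these were chosen with earlier results of these data known, the shares of all genes beside their counts are description only. In the difference of log2 CPM, 21 of the 28 tested members were at least 2-fold higher in library 1 than in library 2 in both genotypes, against 0.96% of all genes tested. Taken separately, 23 members passed this fold between the wild-type libraries, where 1.9% of all genes did, and 24 between the knockout libraries, where 5.11% did. The median member was 2.27 log2 units higher in wild type 1 than in wild type 2 and 2.08 units higher in knockout 1 than in knockout 2. Over all genes tested, the medians were 0.08 and -0.01. For 25 of the 29 members, both libraries numbered 1 lay above both libraries numbered 2, a pattern shown by 19.6% of all genes tested. The exceptions were Ifit2, Gbp5, Cxcl9 and Cxcl10. No member was at least 2-fold higher in library 2 of both genotypes, where 7.29% of all genes were.

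**Figure D1:**
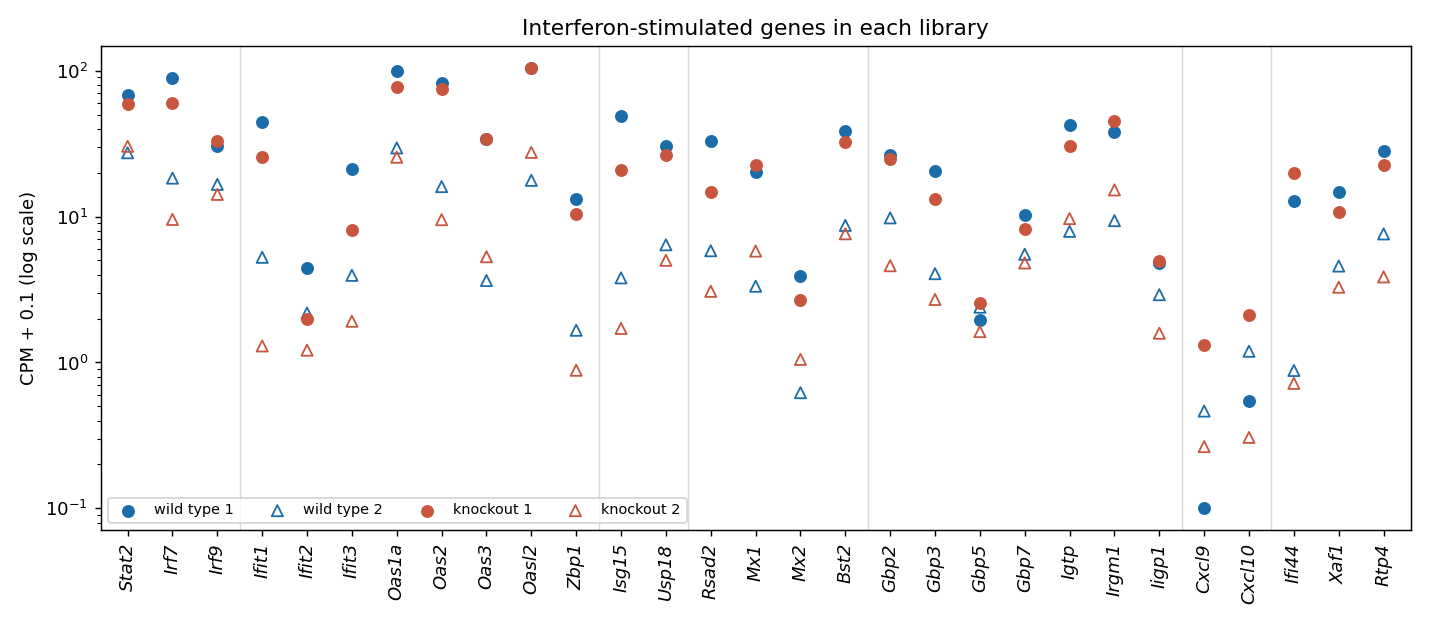
Level of each of the 29 members in each library, as CPM plus 0.1 on a log axis, with members grouped by role between the grey lines. Filled circles are wild type 1 and knockout 1 and open triangles are wild type 2 and knockout 2, and for 25 members both circles sit above both triangles.

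**Figure D2:**
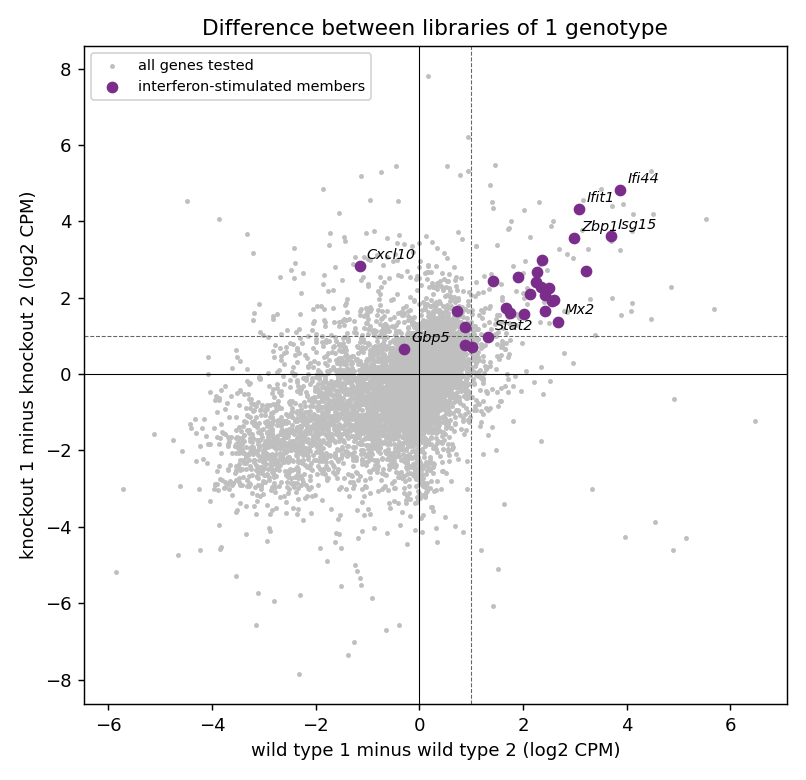
Difference between the libraries of a genotype in log2 CPM, library 1 minus library 2, for wild type (horizontal) and knockout (vertical), with 28 members over all 14067 genes tested and dashed lines at a 2-fold difference. Of the members, 21 lie beyond both dashed lines, and Cxcl10 and Gbp5 lie left of zero.

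Among the regulators, Irf7, the factor that amplifies type I interferon production, had the widest split. It measured 88.7 then 18.2 CPM in wild type and 60.3 then 9.46 CPM in knockout. Stat2, a subunit of the ISRE-binding complex, measured 68.1 then 27.2 CPM in wild type and 59.1 then 30.2 CPM in knockout. Irf9, the DNA-binding subunit of that complex, measured 30.5 then 16.5 CPM against 33.0 then 14.1 CPM. All 3 were higher in the libraries numbered 1, and their levels overlapped between the genotypes. Irf7 overlaps Phrf1 on the opposite strand and Irf9 overlaps Rnf31 on the same strand, and whether counting used strand is not given in the sources used here, so their counts are less certain.

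Next came the genes for proteins that bind foreign nucleic acid or make nucleotide signals on sensing it. Ifit1, which binds RNA that lacks the host cap, had 1100 then 99 counts in wild type and 571 then 29 in knockout, or 44.4 then 5.16 CPM against 25.6 then 1.20 CPM. Library 1 stood 8.61 times above library 2 in wild type (95% interval 7.001 to 10.7) and 21.4 times in knockout (14.7 to 32.2). These intervals do not overlap, so the split was wider in knockout than counting error allows. Such intervals were apart for 11 of the 29 members, with the wider split in knockout for 7 and in wild type for 4.

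Ifit3, which stabilises the binding of Ifit1 to RNA in human cells, measured 21.1 then 3.85 CPM in wild type and 7.94 then 1.82 CPM in knockout. Ifit2, a further member of the family, measured 4.32 then 2.08 CPM in wild type and 1.88 then 1.11 CPM in knockout, and was the only member whose genotypes did not overlap. The 3 genes lie in a cluster on chromosome 19 (mm10), with Ifit2 at 34550694 to 34576419, Ifit3 at 34583531 to 34588731 and Ifit1 at 34640871 to 34650009, all on the plus strand, and Ifit1bl1 and Ifit3b lie between Ifit3 and Ifit1. Ifit3 has a close copy, Ifit3b, at 13.4 then 1.77 CPM against 3.50 then 1.07 CPM, so the division of shared reads between the pair is uncertain.

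The oligoadenylate synthetases, which on binding double-stranded RNA make the signal that activates RNase L, followed the same order. Oas1a measured 99.7 then 29.4 CPM in wild type and 77.4 then 25.4 CPM in knockout. Oas2 measured 82.1 then 15.9 CPM against 75.2 then 9.42 CPM. Oas3 measured 33.8 then 3.54 CPM against 34.1 then 5.20 CPM. Oas1a also has a close copy, Oas1g, at 41.3 then 13.02 CPM against 28.3 then 8.67 CPM. In Oas1a, Oas2 and Oas3 the libraries numbered 1 of the 2 genotypes were far closer to each other than either was to its own partner.

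Oasl2, a synthetase-like gene, measured 104 then 17.6 CPM in wild type and 104 then 27.4 CPM in knockout. Its split was wider in wild type, at 5.92 times (95% interval 5.28 to 6.65), than in knockout, at 3.79 times (3.47 to 4.14). Zbp1, a sensor of Z-form nucleic acid that can trigger cell death, measured 12.99 then 1.56 CPM in wild type and 10.3 then 0.785 CPM in knockout. All 8 genes of this group were higher in library 1 of both genotypes, 7 of them at least 2-fold, with Ifit2 short of it in knockout.

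Isg15, a ubiquitin-like modifier, had 1210 then 71 counts in wild type and 460 then 39 in knockout, or 48.8 then 3.70 CPM against 20.6 then 1.61 CPM. Library 1 stood 13.2 times above library 2 in wild type (95% interval 10.4 to 17.01) and 12.8 times in knockout (9.22 to 18.2). Usp18, the protease that removes Isg15 and damps the type I receptor, measured 30.4 then 6.30 CPM against 26.3 then 4.91 CPM. The splits of Isg15 and Usp18 thus had nearly the same size in both genotypes.

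Genes whose products block steps of viral growth split as well. Rsad2 (viperin), which makes a chain-terminating nucleotide, measured 32.8 then 5.73 CPM in wild type and 14.5 then 2.97 CPM in knockout. Bst2 (tetherin), which holds budding virus at the cell surface, measured 38.2 then 8.59 CPM against 32.2 then 7.52 CPM. Mx1, a dynamin-like GTPase gene that carries a deletion in many laboratory strains, measured 19.97 then 3.23 CPM against 22.3 then 5.70 CPM. Its neighbour Mx2 is annotated as a polymorphic pseudogene, so a working product is not certain. Mx2 had fewer counts, with 94 then 10 counts in wild type and 58 then 23 in knockout. Its 95% intervals of 3.79 to 15.7 times and 1.66 to 4.65 times overlap. All 4 genes passed the 2-fold difference in both genotypes.

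Ifi44, an interferon-induced gene, had the widest split of the list. It had 313 then 15 counts in wild type and 442 then 15 in knockout, or 12.6 then 0.781 CPM against 19.8 then 0.619 CPM. The folds were 16.2 (95% interval 9.65 to 29.2) in wild type and 32.0 (19.2 to 57.6) in knockout. Xaf1, whose product binds an inhibitor of apoptosis, measured 14.6 then 4.48 CPM against 10.7 then 3.18 CPM. Rtp4, a receptor-transporter gene, measured 28.2 then 7.50 CPM against 22.3 then 3.76 CPM, and overlaps Masp1 on the opposite strand.

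The GTPases, which are induced most by interferon gamma and attack the compartments of intracellular microbes, were less uniform. Igtp measured 42.4 then 7.81 CPM in wild type and 30.2 then 9.58 CPM in knockout, and it overlaps Irgm2 on the same strand. Irgm1 measured 37.9 then 9.27 CPM against 45.1 then 15.1 CPM. Gbp2 measured 26.3 then 9.69 CPM against 24.6 then 4.50 CPM. Gbp3 measured 20.5 then 3.96 CPM against 13.05 then 2.60 CPM. These 4 passed the 2-fold difference in both genotypes.

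The other 3 GTPases did not. Gbp7 measured 10.1 then 5.42 CPM in wild type and 8.11 then 4.71 CPM in knockout. Iigp1 measured 4.72 then 2.81 CPM against 4.89 then 1.49 CPM. Gbp5, which in immune cells promotes the inflammasome, measured 1.86 then 2.29 CPM against 2.47 then 1.53 CPM. The wild-type fold of Gbp5 had a 95% interval of 0.524 to 1.25, so a difference between these libraries was not detectable at this depth. The guanylate-binding genes lie together on chromosome 3 and share sequence, which makes the estimated counts of single copies uncertain.

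The chemokines that draw T cells showed a different order. Cxcl10 had 11 then 21 counts in wild type and 45 then 5 in knockout, or 0.444 then 1.09 CPM against 2.02 then 0.206 CPM. Cxcl9 had 0 then 7 counts in wild type and 27 then 4 in knockout. A count of 0 in wild type 1 allows up to 0.121 CPM. For both genes knockout 1 was the highest library and wild type 1 was below wild type 2, as was the case for Gbp5 alone among the other members. Cxcl10 lies within Art3 on the opposite strand, and both chemokines had few counts.

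To show what the promoters of the members share, the RefSeq windows from 250 bases before to 50 after each transcription start (GRCm38.p6) were searched on both strands for the ISRE core, which is GAAA, any 2 bases and GAAA again. Of the 22 members with a window, 15 held it, against 3.44% of all 32851 windows. Matches may overlap each other. Among members at least 2-fold higher in library 1 of both genotypes, 11 of 15 with a window held the core, and among the other members 4 of 7 did. A match is a description of the sequence, not a bound site. The windows below are those of Isg15, with the most matches, of Ifit1 and Oas3, with wide splits, and of Cxcl10, which held the core but did not follow the split. They are written 5′ to 3′ on the strand of the gene, with matches in capitals.
Isg15 (chr4:156200769-156201068, minus strand): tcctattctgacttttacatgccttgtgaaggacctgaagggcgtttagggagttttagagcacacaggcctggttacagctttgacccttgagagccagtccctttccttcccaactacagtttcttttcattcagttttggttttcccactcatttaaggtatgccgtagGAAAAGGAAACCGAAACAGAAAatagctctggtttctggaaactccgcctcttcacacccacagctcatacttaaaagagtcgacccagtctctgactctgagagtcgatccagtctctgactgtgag
Ifit1 (chr19:34640639-34640938, plus strand): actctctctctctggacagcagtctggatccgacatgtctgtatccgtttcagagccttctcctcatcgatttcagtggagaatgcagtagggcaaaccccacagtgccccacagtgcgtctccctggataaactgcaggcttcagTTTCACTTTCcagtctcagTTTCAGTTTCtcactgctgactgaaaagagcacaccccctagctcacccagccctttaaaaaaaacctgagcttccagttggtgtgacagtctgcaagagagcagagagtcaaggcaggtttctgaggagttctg
Oas3 (chr5:120777610-120777909, minus strand): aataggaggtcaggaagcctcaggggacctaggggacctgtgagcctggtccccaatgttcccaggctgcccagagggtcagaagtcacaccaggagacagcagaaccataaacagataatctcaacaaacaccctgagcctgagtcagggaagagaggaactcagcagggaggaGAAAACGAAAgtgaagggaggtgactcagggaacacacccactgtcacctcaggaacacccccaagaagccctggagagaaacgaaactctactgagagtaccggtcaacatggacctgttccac
Cxcl10 (chr5:92348840-92349139, minus strand): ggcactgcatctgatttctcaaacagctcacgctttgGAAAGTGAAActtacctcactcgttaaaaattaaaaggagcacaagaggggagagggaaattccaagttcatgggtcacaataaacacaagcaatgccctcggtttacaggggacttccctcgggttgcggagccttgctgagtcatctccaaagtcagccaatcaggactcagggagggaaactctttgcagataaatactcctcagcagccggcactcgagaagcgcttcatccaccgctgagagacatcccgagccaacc
Isg15 carried 3 overlapping copies between positions -78 and -57 from its start site, all on the strand of the gene. Ifit1 carried 2 copies on the other strand, starting at -104 and -85. Oas3 carried 1 copy at -75 and Cxcl10 carried 1 copy at -213. The windows of Ifi44, Irf7, Oasl2 and Xaf1, all genes with a split of at least 2-fold in both genotypes, held no copy. The palindromic motif TTCNNNGAA, known as the gamma-activated sequence, was in the windows of 6 of 22 members, namely Bst2, Gbp5, Gbp7, Ifit2, Igtp and Oas1a, and in 8.3% of all windows. It shares bases with an ISRE core in Bst2.

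Knockout was then compared with wild type in edgeR's quasi-likelihood test across 14067 genes, with Benjamini-Hochberg adjustment. Y-linked genes, given with the cell type markers, were nearly absent from both knockout libraries. Differences between genotypes, here and below, therefore cannot be told apart from a possible difference of sex. None of the 28 tested members passed, at an adjusted p of 0.05 or at an unadjusted p of 0.05. Over all genes tested, 0% passed the adjusted threshold in either direction and 15.9% the unadjusted one. Even the targeted gene Muc6 missed the adjusted threshold, at a log2 fold change of -10.6 (edgeR adjusted p = 0.178, DESeq2 adjusted p = 6.05e-06). A miss of edgeR's adjusted threshold therefore says little about a gene here. By limma voom 0% of all genes passed and again no member. By DESeq2 4.06% of all genes were higher and 3.36% lower, and none of them was a member (lowest adjusted p 0.549). Only Ifit2 had all knockout levels below all wild-type levels, where 23.8% of all genes did, and no member had them all above, where 26.3% did.

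The sizes of the genotype differences were small beside their errors. Log2 fold changes of members ran from -1.36 to 0.60, with 22 members lower and 6 higher and a median of -0.28, where the median of all genes was -0.00. The standard errors ran from 0.47 to 1.90, and 26 of the 28 members had a fold change smaller than its standard error. The exceptions were Ifit2, at -1.09 ± 0.61 (SE, n = 2 per group, edgeR adjusted p = 0.468), and Ifit3, at -1.36 ± 1.11 (edgeR adjusted p = 0.624). Isg15 was at -1.24 ± 1.65 (edgeR adjusted p = 0.775) and Ifi44 at 0.60 ± 1.90 (edgeR adjusted p = 0.917). A miss of the threshold with errors of this size does not show that the genotypes are alike.

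The sign of the median changed with the library left out. Each such fit holds unequal numbers of libraries numbered 1 and 2. Its sign thus follows in part from the split by number and is no separate measure of genotype. Without wild type 1 the median of the tested members was 0.94, and without wild type 2 it was -0.97. Without knockout 1 it was -1.76, and without knockout 2 it was 0.28. No member passed in any of these fits, although without knockout 2 the test called 350 genes higher and 501 lower. Isg15 ran from -4.04 without knockout 1 to 1.59 without wild type 1. Ifit2 was the only tested member that kept its sign in all 4, from -1.55 to -0.47. This follows from the lack of overlap between its genotypes and is no separate check.

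**Figure D3:**
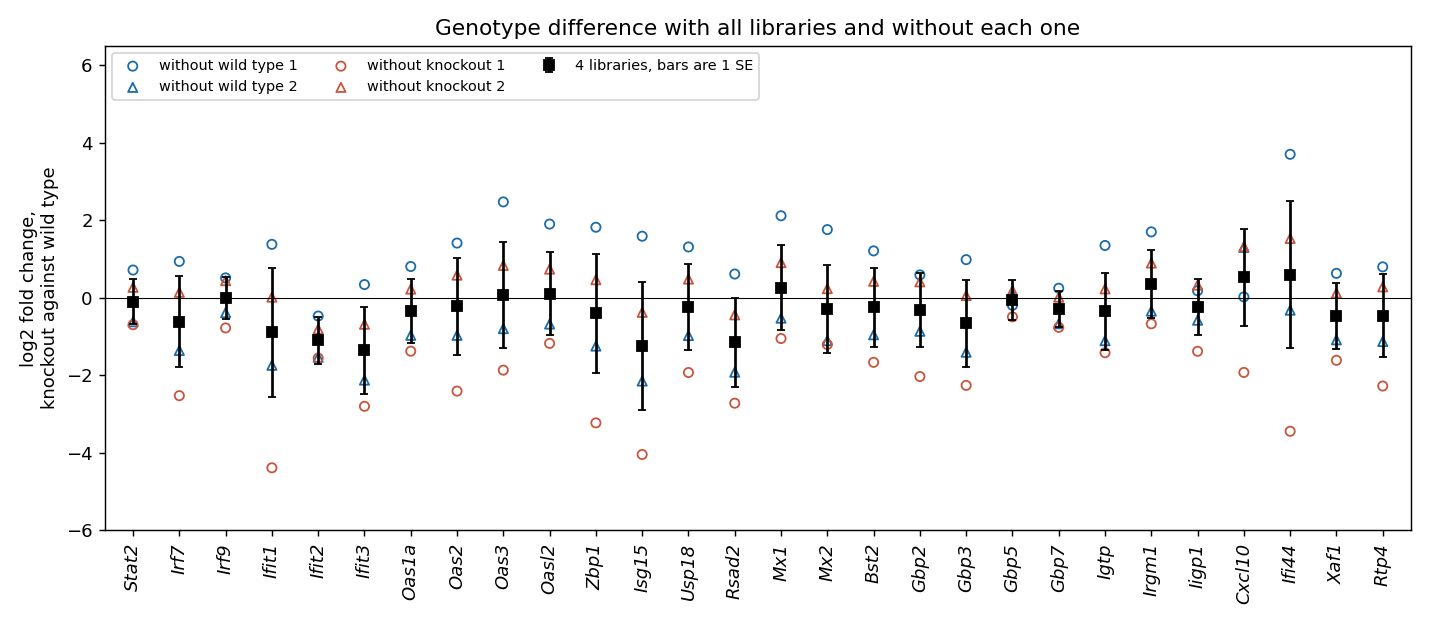
Log2 fold change of knockout against wild type for each of the 28 tested members, with 4 libraries (black squares, bars of 1 standard error) and with each library left out in turn (open symbols). Symbols lie on both sides of zero for all members except Ifit2, whose genotypes did not overlap. Each fit with a library left out is unbalanced in library number.

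Libraries of equal number could also be set side by side. The labels do not say what the number marks, and 2 pairs cannot show a pairing. The members are not independent of each other, so their counts describe these 2 pairs only. Of the 28 tested members, 16 were lower in knockout 1 than in wild type 1 and also lower in knockout 2 than in wild type 2, among them Irf7, Ifit1, Isg15 and Rsad2, where 36% of all genes were. Oas3, Mx1 and Irgm1, or 3 of 28, were higher in both, where 36.8% of all genes were. In all, 15 members had the order wild type 1, knockout 1, wild type 2, knockout 2 from high to low, a pattern of 4.62% of all genes tested. This order includes the split by number, which 25 of the 29 members and 19.6% of all genes tested showed. The 4.62% is therefore no measure of a genotype order alone. Wild type 1 was the highest library for 20 members and knockout 1 for 9, and knockout 2 was the lowest for 21. The shares of all genes for these counts were not taken.

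Steps of the pathway upstream of the members split less. Of 21 interferon genes, 17 had 0 counts in every library, including Ifnb1, Ifnl3 and all the Ifna genes, at a limit of 0.121 to 0.156 CPM for a count of 0. Ifne, an epithelial type I interferon, had 6 then 2 counts in wild type and 3 then 1 in knockout, and Ifng, interferon gamma, had 1 then 0 counts in wild type and 0 then 1 in knockout. Ifnz and Ifnl2 were the other ones with any count, at most 5 in a library. All 6 receptor genes were tested and none was 2-fold apart in library 1 of both genotypes. Ifnlr1, the type III receptor chain, measured 27.2 then 18.02 CPM in wild type and 33.4 then 22.1 CPM in knockout. The medians of the receptors were 0.15 log2 units higher in wild type 1 and 0.40 higher in knockout 1.

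Over 10 kinases and transcription factors the median difference, library 1 minus library 2, was 0.17 log2 units in wild type and 0.23 in knockout. Of the 10, 1 was at least 2-fold higher in library 1 of both genotypes, where 0.96% of all genes were. Irf1, which interferon gamma induces, measured 28.1 then 14.4 CPM against 33.6 then 26.8 CPM. Jak1, a kinase shared by the receptors, measured 126 then 121 CPM against 114 then 107 CPM. Of 14 tested sensors and adaptors 2 passed the 2-fold difference in both genotypes, Ifih1 (MDA5), at 61.0 then 19.5 CPM against 45.7 then 17.7 CPM, and Dhx58 (LGP2), at 18.7 then 4.58 CPM against 13.05 then 2.02 CPM. Both are induced by interferons, while their adaptor Mavs measured 79.4 then 70.9 CPM against 55.7 then 62.4 CPM.

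Further interferon-stimulated genes followed the members. Of 43 tested, 23 were at least 2-fold higher in library 1 of both genotypes, where 0.96% of all genes were. By any amount, 33 were higher in library 1 of both, where 38.4% of all genes were. Ifit1bl1, a relative of Ifit1, measured 192 then 16.9 CPM in wild type and 25.2 then 0.785 CPM in knockout. Ddx60, a helicase gene, measured 98.1 then 15.2 CPM against 40.7 then 4.09 CPM. Some went against the split in wild type, such as Gbp9, at 0.0403 then 2.08 CPM against 0.583 then 0.578 CPM, and Ifitm3, which blocks viral entry, at 4.16 then 14.8 CPM against 30.04 then 12.4 CPM. Among 11 antigen presentation genes 5 passed the 2-fold difference in both, including Nlrc5, the activator of MHC class I genes, at 11.9 then 2.08 CPM against 7.58 then 1.07 CPM, and B2m, the light chain of class I, at 376 then 180.3 CPM against 262 then 131 CPM.

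**Figure D4:**
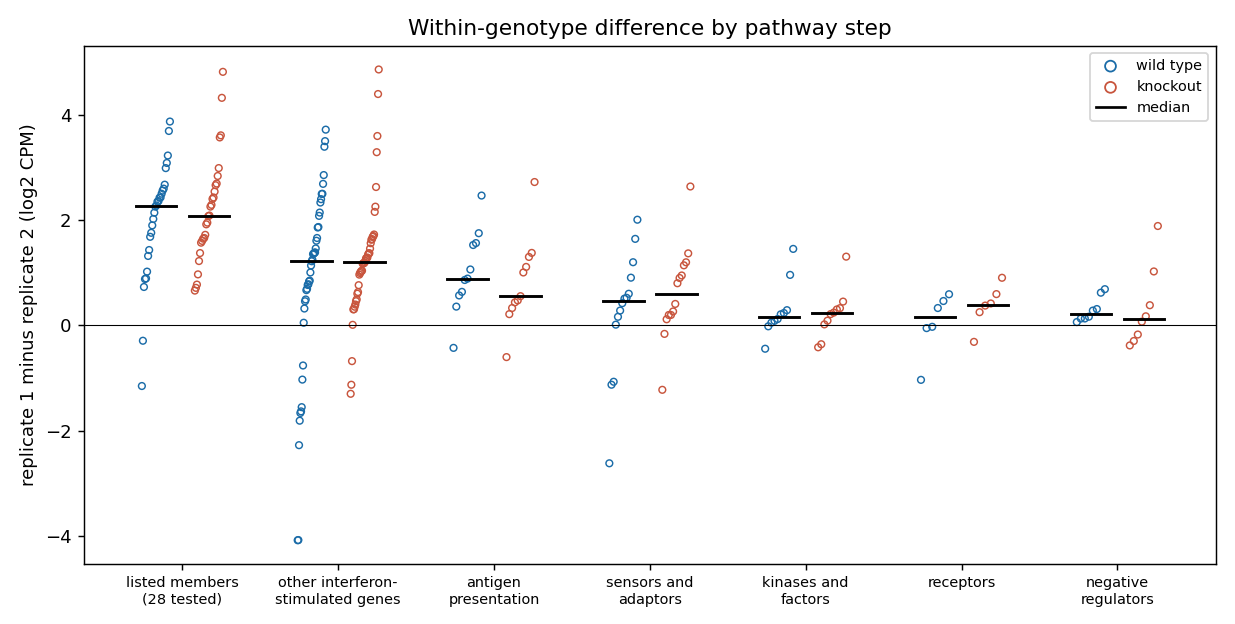
Difference between the libraries of a genotype in log2 CPM, library 1 minus library 2, for tested genes of each step of the pathway (open points, blue for wild type and red for knockout, black bars for medians). The medians in wild type and knockout are 2.27 and 2.08 in the members and 0.15 and 0.40 in the receptors. In the negative regulators they are 0.22 and 0.12.

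Between genotypes, none of the 92 tested genes in the pathway lists, which hold no member, passed edgeR's adjusted threshold. By DESeq2, 1 rose and 1 fell, where 4.06% of all genes tested were higher and 3.36% lower. Cgas, the sensor of cytosolic DNA, measured 1.21 then 1.20 CPM in wild type and 4.84 then 4.21 CPM in knockout (a difference of 1.91 ± 0.40 log2 units, SE, with edgeR adjusted p = 0.226 and DESeq2 adjusted p = 0.0153). Ifi27 measured 183 then 113 CPM against 22.4 then 55.3 CPM (a difference of -1.93 ± 0.54 log2 units, SE, with edgeR adjusted p = 0.255 and DESeq2 adjusted p = 0.00437). For both genes the genotypes did not overlap. Over all genes tested, 26.3% were higher in knockout without overlap and 23.8% lower. Most genes named here and below were picked by their p-values, so a lack of overlap follows in part from that choice. Of the receptors, Ifngr1 measured 175 then 139 CPM against 108 then 80.9 CPM, and its partner Ifngr2 87.9 then 63.8 CPM against 129 then 109 CPM, with edgeR adjusted p-values of 0.279 and 0.303. Neither gene overlapped between genotypes. The type I chain Ifnar1 measured 20.7 then 21.1 CPM against 32.0 then 24.7 CPM, and the other chain, Ifnar2, 4.76 then 9.84 CPM against 5.20 then 6.48 CPM. Isg20, an interferon-induced exonuclease, measured 6.74 then 6.15 CPM against 13.001 then 9.95 CPM (edgeR adjusted p = 0.251), and the phosphatase gene Ptpn6 30.6 then 25.2 CPM against 15.4 then 20.1 CPM (edgeR adjusted p = 0.277).

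The remaining genes with the smallest p-values of each list had an edgeR adjusted p of 0.327 (Pias1) or more. Of the kinases and factors, Tyk2 measured 41.9 then 35.6 CPM against 52.7 then 44.5 CPM, Irf8 4.68 then 4.74 CPM against 5.42 then 7.27 CPM and Irf3 41.9 then 39.5 CPM against 33.8 then 33.3 CPM. Of the sensors, the kinase gene Ikbke measured 8.996 then 6.30 CPM against 17.5 then 9.33 CPM and Tlr7, a receptor for single-stranded RNA, 0.121 then 1.20 CPM against 0.179 then 0.537 CPM. Of the negative regulators, Ptpn2 measured 17.6 then 16.9 CPM against 19.5 then 24.0 CPM and Pias1 26.9 then 24.6 CPM against 18.7 then 21.1 CPM. Tyk2, Irf8, Ikbke and Ptpn2 were higher in both knockout libraries than in both wild-type libraries, where 26.3% of all genes were. Irf3 and Pias1 were lower in both, where 23.8% of all genes were, and Tlr7 overlapped.

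Among further stimulated genes Ido1, which breaks down tryptophan, measured 3.03 then 0.208 CPM against 10.2 then 4.997 CPM and Ifitm2 11.5 then 33.9 CPM against 56.8 then 36.6 CPM. Among antigen presentation genes the proteasome subunit gene Psmb10 measured 16.9 then 9.12 CPM against 27.6 then 18.7 CPM, the proteasome activator gene Psme2 66.5 then 44.8 CPM against 72.5 then 57.7 CPM and the peptide transporter gene Tap2 28.6 then 15.7 CPM against 16.8 then 14.5 CPM. Ido1, Ifitm2 and Psmb10 were higher in both knockout libraries than in both wild-type libraries, where 26.3% of all genes were. Psme2 and Tap2 overlapped.

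Other tissue components moved with the library number as well. Endothelial and fibroblast markers, 5 of 5 measured, summed to 36.1 then 357 CPM in wild type and 47.1 then 336 CPM in knockout, so they were lowest where the members were highest. Macrophage and monocyte markers, 8 of 8, summed to 15.5 then 69.4 CPM against 23.7 then 35.8 CPM, and 4 leukocyte markers to 11.8 then 27.0 CPM against 10.4 then 21.3 CPM. B and plasma cell markers, 6 of 6 and mostly Jchain, summed to 3.67 then 51.3 CPM against 7.80 then 20.9 CPM, and 5 conventional dendritic markers to 1.13 then 5.52 CPM against 1.84 then 4.67 CPM. All of these sums were higher in library 2 of both genotypes. T and NK markers summed to at most 3.85 CPM and neutrophil markers to at most 1.66 CPM in any library, while 5 plasmacytoid dendritic markers summed to 10.7 then 13.1 CPM against 31.7 then 38.7 CPM. Most of the latter sum was Klk1, which is not particular to those cells, at 8.71 then 10.6 CPM against 29.5 then 34.9 CPM (DESeq2 adjusted p = 1.22e-06, edgeR adjusted p = 0.180), and the defining marker Siglech had 3 then 2 counts in wild type and 1 then 2 in knockout. Pit cell markers summed to 108981 then 72265 CPM in wild type and 61763 then 48512 CPM in knockout. The part of these differences in the split of the members was not tested.

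Knockout 1 stood apart in its gland genes. Parietal markers summed to 15354 then 14975 CPM in wild type and 626 then 4829 CPM in knockout, and chief cell markers to 64361 then 147837 CPM against 2320 then 81388 CPM. Of 3 antral markers, the hormone gene Gast had 1 then 0 counts in wild type and 218 then 0 in knockout, and Pdx1 had 7 then 1 counts and 1316 then 61. The third, Sst, had the opposite order, at 88.5 then 217 CPM against 20.7 then 133 CPM, and the sums of the list were 88.8 then 217 CPM against 89.5 then 136 CPM. Squamous markers, 5 listed, summed to 0.847 then 0.260 CPM in wild type and 130.2 then 10.7 CPM in knockout, so both knockout libraries were above both wild-type libraries, and Trp63, a defining squamous factor, had 0 counts throughout. Y-linked genes summed to 136 then 121 CPM in wild type and 1.43 then 2.44 CPM in knockout. Genotype therefore cannot be told apart from Y-linked expression or from sex, which the labels do not give. The 22 genes of the intestinal enterocyte are a list made after genes that split like the members had been seen. Of these, 18 were tested and 9 were at least 2-fold higher in library 1 of both genotypes, where 0.96% of all genes were. That count follows in part from how the list was made. The brush border enzyme gene Akp3 measured 6.37 then 0.0521 CPM in wild type and 21.3 then 1.20 CPM in knockout, while Cdx1 and Cdx2, regulators that define intestinal identity, had at most 9 counts in any library. Apoa1, another gene of that list, measured 1606 then 1384 CPM against 59.4 then 468 CPM. Whether any of this bears on the members was not tested.

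**Figure D5:**
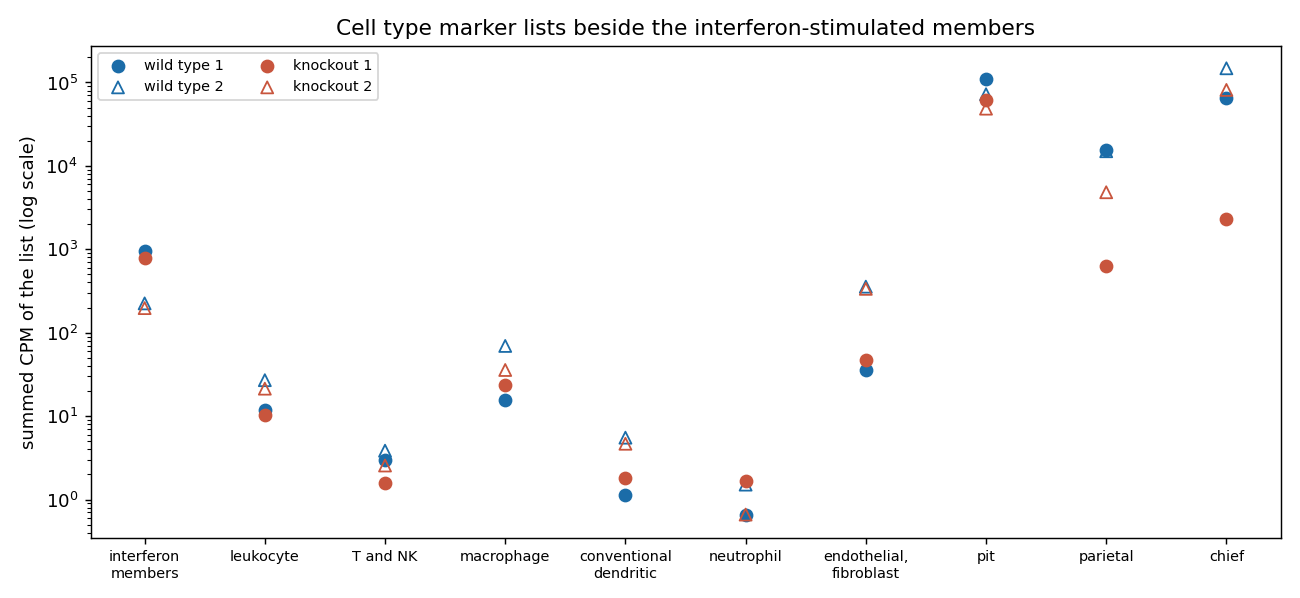
Summed CPM of the 29 members and of lists of cell type markers in each library, on a log axis, with filled circles for libraries numbered 1 and open triangles for libraries numbered 2. Endothelial and fibroblast markers show the split by number turned around. They sum to 36.1 and 47.1 CPM in the libraries numbered 1 and to 357 and 336 CPM in those numbered 2.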

How the data were processed

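RNA sequencing of gastric corpus mucosa was analysed in 4 libraries, 2 per genotype, grouped by the genotype in the labels. The deposited table holds expected counts (estimated counts) per gene, not normalized as far as its values show. The build was mm10, per the submitters' processing notes. No aligner, counting program, strand setting or annotation is named in the sources used here. The kit was a stranded one for poly(A) RNA, per the labels' protocols. Of nonzero values 35% were not whole, and all were rounded. Of 34866 identifiers 34582 matched a GENCODE M21 symbol. A symbol was shared by 52 identifiers, and of those sharing one the identifier with the most counts kept it.

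edgeR 4.0.16 in R 4.3.3 (TMM factors, filterByExpr with a minimum of 10 counts, robust quasi-likelihood fit, no covariate) tested 14067 genes. The standard error is the log2 fold change divided by the square root of F. CPM use TMM-scaled library sizes, and differences between libraries use log2 CPM with a prior count of 2. Folds between libraries carry exact 95% Clopper-Pearson intervals, and a count of 0 a limit of 3 counts, both for counting error only. With 2 libraries against 2, an exact permutation test cannot go below p = 0.33. DESeq2 1.42.0 and limma 3.58.1 were alternatives. The test was tested on simulated data. Promoter sequences are from RefSeq (GRCm38.p6).

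The members, lists and tests were chosen with earlier results of these data known. The text names all 29 members and Muc6. From each tested pathway list it names the 2 genes with the smallest p-values per direction, every gene past an adjusted threshold, and ligands, receptors, kinases and factors that bear on a statement. Ifih1, Dhx58, Ddx60, Gbp9, Ifitm3, Ifit3b, Oas1g, Nlrc5 and the enterocyte list were chosen after their values were seen. 1 gene of the kinase and factor list is not reported here.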

Additional observations from a re-analysis of the deposited data

How the results depend on the processing

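No member passed the adjusted threshold in edgeR with relative log expression or upper-quartile factors, totals that leave out the 20 most abundant genes, either filter, no robust dispersion, the bias-adjusted deviance added after seeing the data, the replicate block or any library left out, nor in DESeq2 or limma voom. Over all genes, 0 higher and 0 lower became 571 and 473 with DESeq2 and 5 and 4 with no filter. With 1 library left out they ran from 0 to 350 higher and from 0 to 501 lower, the lone library being assumed to vary like the others, and the median of the members from -1.76 to 0.94. Members without overlap ran from 0 to 8 higher and from 1 to 21 lower. In those fits 32.6% to 40% of all genes were higher without overlap and 34.9% to 42.8% lower. Ifit2, the 1 such member with all libraries, was not tested under the filter of 50 counts, which left 0. The median difference of the members, library 2 minus library 1, was -2.27 in wild type and -2.08 in knockout. It became -2.15 and -1.97 with upper-quartile factors and -2.08 and -1.87 without the 20 most abundant genes, and -2.19 in wild type with no filter. The sample number as a replicate block left 0 genes and 0 members called. At an unadjusted p of 0.05 it passed 6 members and 23.8% of all genes, and the lowest adjusted p of a member was 0.124. Over 14067 genes, which are not independent, the differences between libraries in wild type and in knockout correlated at r = 0.517. The labels do not say what the number marks, and 2 pairs cannot show a pairing. Irf9 turned from -0.00 to 0.000218 with upper-quartile factors and to 0.035 without the 20 most abundant genes, Cxcl10 to -0.070 and Ifi44 to -0.21 with limma voom, and Mx2 to 0.056 with the replicate block. The cause was not tested. With each library left out in turn, log2 fold changes of the tested members except Ifit2 took both signs. These fits are unbalanced in library number, so the ranges follow in part from the split by number. Ifit2 kept its sign because its genotypes did not overlap. The ranges were for Bst2 from -1.66 to 1.21, Cxcl10 from -1.92 to 1.33, Gbp2 from -2.03 to 0.59, Gbp3 from -2.26 to 0.99, Gbp5 from -0.49 to 0.19, Gbp7 from -0.76 to 0.25, Ifi44 from -3.44 to 3.70, Ifit1 from -4.38 to 1.38 and Ifit3 from -2.80 to 0.34. Further ranges were for Igtp from -1.42 to 1.35, Iigp1 from -1.38 to 0.33, Irf7 from -2.52 to 0.94, Irf9 from -0.78 to 0.52, Irgm1 from -0.67 to 1.70, Isg15 from -4.04 to 1.59, Mx1 from -1.05 to 2.12, Mx2 from -1.20 to 1.76 and Oas1a from -1.37 to 0.81. The rest were for Oas2 from -2.40 to 1.41, Oas3 from -1.86 to 2.48, Oasl2 from -1.17 to 1.90, Rsad2 from -2.72 to 0.62, Rtp4 from -2.27 to 0.80, Stat2 from -0.69 to 0.72, Usp18 from -1.93 to 1.31, Xaf1 from -1.61 to 0.63 and Zbp1 from -3.22 to 1.82.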
